A study of Mus musculus with 6 samples.

Results

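The genes described here are 10 members of the hypoxia-inducible factor (HIF) pathway, chosen by name out of the 23420 genes in the count table: *Hif1a*, *Epas1*, *Egln1*, *Egln2*, *Egln3*, *Hif1an*, *Vhl*, *Bnip3*, *Ankrd37* and *Vegfa*. All 10 had enough counts to be tested. The RNA came from splenic B lymphocytes of 3 Ahr+/+ and 3 Ahr-/- mice on the C57Bl/6J background. The deficient strain is named B6.129-Ahr tm1Bra/J, a germline null allele, so every cell of these mice lacked the aryl hydrocarbon receptor (AhR), not B cells alone. The methods describe the mice as adults matched for age and gender and the B cells as isolated from spleen with a kit, so some cells of other types could remain. Both genotypes were treated alike. The cells were cultured for 8 h with anti-IgM at 10 μg/ml, which engages the B cell receptor, and IL-4 at 20 ng/ml, and the AhR ligand FICZ was added at 250 nM for the last 4 h. All 6 cultures contained FICZ and the labels name no low-oxygen culture, so the comparison is between genotypes in ligand-treated, activated cells at 1 time point.

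AhR and the HIF α subunits are related transcription factors that bind DNA as pairs with the same partner, ARNT, also known as HIF-1β. When oxygen is plentiful, the EGLN enzymes (prolyl hydroxylases) modify the HIF α subunits, VHL recognises the modified proteins and a ubiquitin ligase marks them for destruction. HIF1AN, an asparagine hydroxylase, blocks the binding of coactivators to the α subunits. When oxygen falls the α subunits accumulate and switch on genes for glucose uptake, glycolysis, mitophagy and vessel growth. Much of this control acts on protein, whereas the libraries measured mRNA, and HIF protein was not measured here.

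Total counts ran from 22095096 to 53648787 per library, the deepest and the shallowest both being Ahr-/-. A floor of 3 counts corresponded to between 2.13 and 5.15 normalized counts, which are counts scaled to the mean library size with TMM factors, and covers counting error only. The genotype labels were checked on *Ahr* and *Cyp1a1*. *Cyp1a1*, the classical AhR target, had 4973, 5437 and 5327 normalized counts in the Ahr+/+ mice and 6.87, 2.84 and 6.38 in the Ahr-/- mice. Reads on *Ahr* itself were 30.3% fewer in the Ahr-/- mice, and gene-level counts cannot tell which exons they fall in. Over all tested genes 17.9% passed the threshold (9.79% higher and 8.13% lower in Ahr-/- B cells), beside which the marker counts stand. All 8 B cell markers were detected and 5 passed, 4 higher and 1 lower, with summed levels of 85400 to 89436 normalized counts in the Ahr+/+ and 98322 to 103128 in the Ahr-/- libraries. Dendritic cell markers summed to 2806 to 3283 against 3175 to 4210, with 7 of 10 past the threshold and 6 of them higher in Ahr-/- B cells. Macrophage and monocyte markers summed to 1209 to 1515 against 630 to 1130, with 2 of 10 past the threshold, *Emr1* lower and *Cd14* higher, and a median log2 fold change of 0.55. The lower sum came from *Emr1*, and without it the ranges overlapped, at 556 to 853 against 594 to 1066. The summed T and NK cell markers overlapped between genotypes at 223 to 378 against 281 to 331, with 3 of 9 past the threshold, 2 higher and 1 lower. Neutrophil markers overlapped at 123 to 371 against 146 to 540. Endothelial markers summed to 586 to 666 against 439 to 496, nearly all from *Pecam1*, which was lower. Of the 4 endothelial markers tested 3 had a positive log2 fold change and 1 of these was called, while *Emcn* and *Cldn5* were at 0. Stromal markers did not exceed 7.86 and erythroid markers 51.5, with *Col3a1*, *Pdgfra*, *Dcn* and the globin genes listed at 0. For the globin genes absence cannot be told apart from reads that were not assigned to them, so the erythroid sum rests on the other markers. In a bulk sample, fewer cells of a type and less RNA per cell cannot be told apart.

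Of the 10 members, 5 had an adjusted p under 0.05 in edgeR's quasi-likelihood test, against 17.9% of the 13682 genes tested. *Egln2* and *Egln3* were higher in Ahr-/- B cells, where 9.79% of tested genes were called, and *Hif1a*, *Egln1* and *Vhl* were lower, where 8.13% were called. The genotypes were fully separate for 6 members, the same 5 and *Hif1an*, against 33.5% of tested genes. The median log2 fold change (Ahr-/- over Ahr+/+) of the members was -0.08, and that of all tested genes was 0.00. 4 of the 5 calls were under 2-fold, and *Egln3* exceeded it. The count of 5 fell to 2, *Hif1a* and *Egln3*, without Ahr+/+ replicate 1 and also without Ahr-/- replicate 2. It was 3, with *Vhl* added, without Ahr+/+ replicate 3 and with DESeq2's Wald test. Each non-overlapping gene had a two-sided exact permutation p of 0.1, the smallest that 3 mice against 3 allow. The labels call the libraries replicates without saying how the mice were paired or when they were processed. The edgeR p-values rest on the spread between these mice, estimated with help from all tested genes. They do not cover a difference in processing that coincides with genotype.

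**Figure D1:**
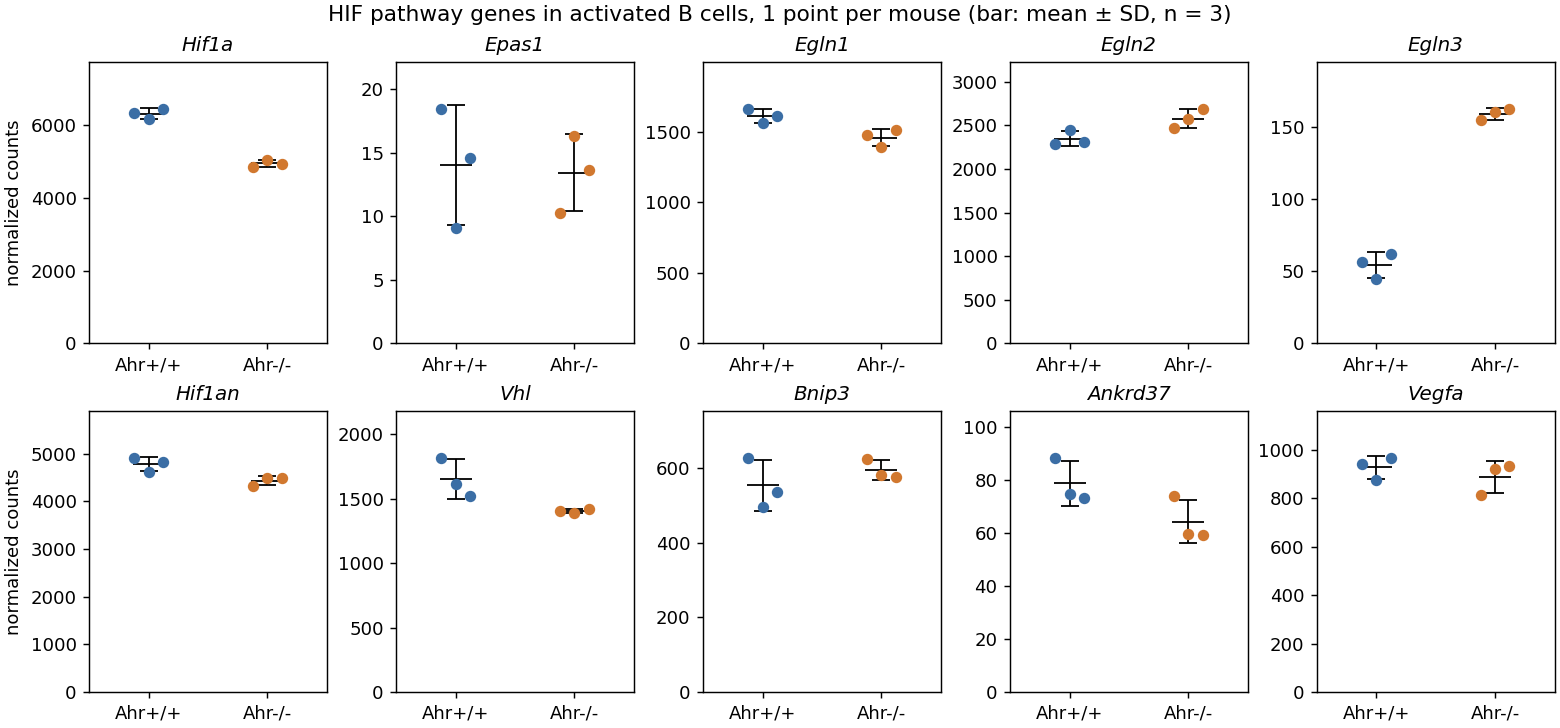
Normalized counts (vertical axes, each from 0) of the 10 HIF pathway genes in Ahr+/+ and Ahr-/- B cells. Each point is 1 mouse and the bars are the mean ± SD (n = 3 mice). *Egln3* sits between 44.3 and 61.8 in Ahr+/+ mice and between 154 and 162 in Ahr-/- mice, and *Hif1a* between 6163 and 6444 against 4862 and 5051.

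HIF binds DNA at a core of ACGTG or GCGTG, and the AhR–ARNT pair at GCGTG, so a GCGTG match cannot be assigned to either. The 250 bases upstream of the annotated transcript starts were searched for ACGTG and GCGTG on both strands in the RefSeq promoter sequences of GRCm38.p6. The table held 11 windows for 9 members and no entry for *Epas1*. ACGTG was in 16.6% and GCGTG in 28.2% of all 32851 windows of this length. The palindrome CACGTG, known as an E-box, holds ACGTG on both strands and was in 6.02% of windows. Of the members' 11 windows, 7 held ACGTG and 6 held GCGTG. By gene, 7 members had ACGTG, *Vhl* and *Hif1an* being those without, and 5 had GCGTG. *Vegfa* counts in both only through a window inside the gene (chr17:46025164-46025413), and its window at the gene start held neither. 4 windows are shown because they belong to the member with the largest rise, the member with the largest fall among those called, a hydroxylase gene that rose slightly and a target gene that was not called. Capitals mark every ACGTG and GCGTG on either strand, and each sequence runs 5′ to 3′ along the gene's own strand, ending at the base before the transcript start. For *Hif1a* that RefSeq start lies downstream of the gene start in GENCODE.
Egln3, chr12:54203875-54204124, minus strand: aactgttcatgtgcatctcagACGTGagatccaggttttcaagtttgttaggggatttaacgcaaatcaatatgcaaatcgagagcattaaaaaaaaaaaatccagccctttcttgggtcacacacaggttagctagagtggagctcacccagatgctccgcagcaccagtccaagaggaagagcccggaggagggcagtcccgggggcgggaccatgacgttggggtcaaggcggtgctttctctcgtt
Hif1a, chr12:73907617-73907866, plus strand: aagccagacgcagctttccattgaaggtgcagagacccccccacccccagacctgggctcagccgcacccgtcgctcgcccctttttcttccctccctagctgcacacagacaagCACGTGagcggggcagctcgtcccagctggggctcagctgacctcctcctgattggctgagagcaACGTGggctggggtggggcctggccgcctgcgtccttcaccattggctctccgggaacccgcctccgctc
Egln2, chr7:27166803-27167052, minus strand: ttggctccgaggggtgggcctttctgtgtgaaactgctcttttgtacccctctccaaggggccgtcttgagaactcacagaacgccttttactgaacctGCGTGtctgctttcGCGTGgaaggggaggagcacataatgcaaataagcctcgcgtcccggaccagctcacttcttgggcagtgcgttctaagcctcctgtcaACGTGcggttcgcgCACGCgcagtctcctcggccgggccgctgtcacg
Bnip3, chr7:138909507-138909756, minus strand: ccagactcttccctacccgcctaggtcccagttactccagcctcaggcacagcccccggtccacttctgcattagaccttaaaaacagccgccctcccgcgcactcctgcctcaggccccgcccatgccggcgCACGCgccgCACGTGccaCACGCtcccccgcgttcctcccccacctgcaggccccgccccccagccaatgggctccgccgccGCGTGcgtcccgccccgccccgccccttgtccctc
In *Egln3* the single ACGTG began at position -229, counted from the transcript start, and neither *Egln3* nor *Hif1a* held GCGTG. *Hif1a* had an E-box beginning at -135 and a further ACGTG at -70. *Egln2* had ACGTG at -48 and GCGTG at -151, -137 and -34. *Bnip3* had an E-box at -108 and GCGTG at -117, -99 and -35. A match describes letters only, since no binding was measured in these libraries.

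The α subunit genes differed widely in level. *Hif1a* (chromosome 12, 73901375 to 73947530 in GRCm38), which encodes the broadly expressed α subunit HIF-1α, had 6342, 6163 and 6444 normalized counts in the Ahr+/+ mice and 4862, 5051 and 4923 in the Ahr-/- mice. Every Ahr-/- mouse was below every Ahr+/+ mouse, and the gap between the genotypes was wider than the range within either. The means were 6316 ± 143 and 4945 ± 96.2 (SD, n = 3 mice each), which gave -0.35 as the log2 fold change (SE, the standard error, 0.037, edgeR adjusted p = 2.5e-05). This is 21.7% lower in Ahr-/- B cells, and the 95% interval of the difference ran from -25.9% to -17.1%, without adjustment for the number of genes. In all 14 alternative fits the change stayed past the threshold, between -0.37 and -0.33. *Hif1a* overlaps the annotated genes *Gm15283* on the opposite strand and *Gm49321* on its own strand, with which reads could be shared.

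*Epas1* (chromosome 17, 86753700 to 86833410), which encodes HIF-2α, best known from endothelial cells and other specialised cell types, was barely detected. The libraries held 19, 9 and 13 counts in Ahr+/+ and 6, 23 and 15 in Ahr-/- B cells. The values overlapped fully, at 14.0 ± 4.72 and 13.4 ± 3.03 normalized counts (SD, n = 3 mice each), and no difference was detectable at this depth. The 95% interval of its log2 fold change ran from -0.82 to 0.81, which leaves room for changes close to 2-fold either way. *Epas1* overlaps the annotated gene *AC096777.1* on its own strand. The remaining α subunit gene, *Hif3a*, was as low, with 21, 17 and 16 counts against 12, 21 and 19 (log2 fold change -0.12, adjusted p = 0.83 from edgeR).

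The shared partner *Arnt* had 2551, 2563 and 2455 normalized counts in Ahr+/+ and 2284, 2312 and 2558 in Ahr-/- mice. Ahr-/- replicate 3 lay among the Ahr+/+ values, and the other two Ahr-/- mice lay below them. The log2 fold change was -0.08 (SE 0.047, edgeR adjusted p = 0.30), with an unadjusted 95% interval of -0.18 to 0.02. Without Ahr-/- replicate 3 it was -0.14 and passed the threshold (adjusted p = 0.041 from edgeR). *Arnt* overlaps *Gm42672* on its own strand. *Arnt2*, its relative best known from neurons, had 1, 0 and 1 counts in Ahr+/+ and none in Ahr-/- libraries and was not tested.

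**Figure D2:**
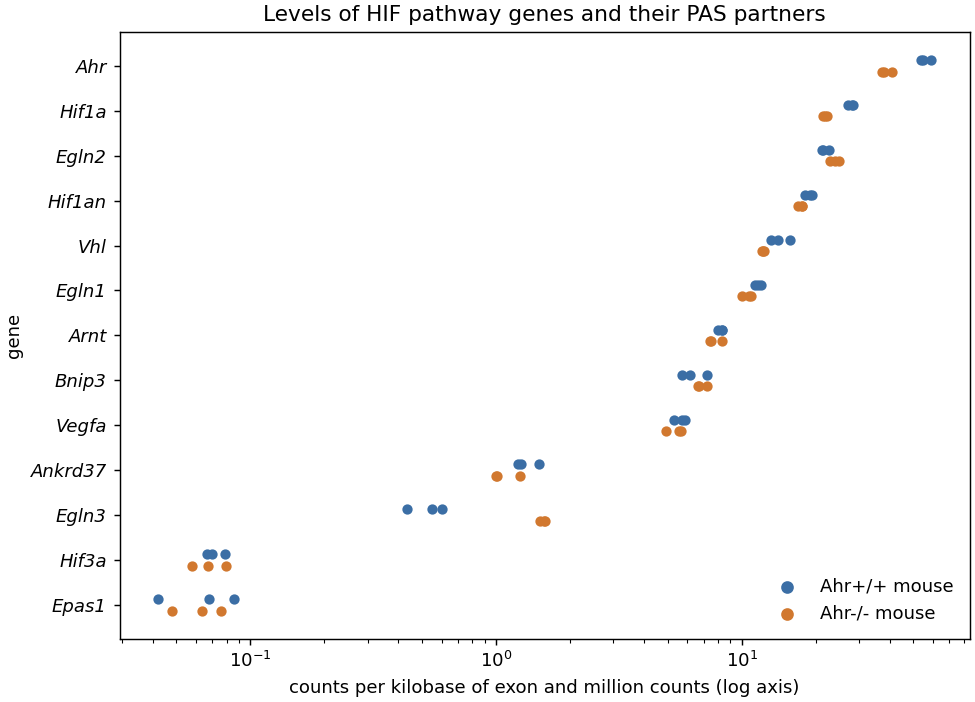
Counts per kilobase of exon and 1000000 counts (log axis) in each mouse for the members, *Ahr*, *Arnt* and *Hif3a*, ordered by the Ahr+/+ mean. In Ahr+/+ mice *Ahr* and *Hif1a* stand highest, and *Epas1* and *Hif3a* lie near 0.07, far below the rest.

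On a scale that can be compared between genes, counts per kilobase of exon and 1000000 counts, the Ahr+/+ order was *Hif1a* (27.9 ± 0.629), *Egln2* (21.8 ± 0.778), *Hif1an* (18.8 ± 0.610), *Vhl* (14.3 ± 1.34), *Egln1* (11.7 ± 0.353), *Bnip3* (6.37 ± 0.780), *Vegfa* (5.63 ± 0.292), *Ankrd37* (1.33 ± 0.144), *Egln3* (0.529 ± 0.088) and *Epas1* (0.065 ± 0.022; SD, n = 3 mice). *Ahr* stood above all members at 55.6 ± 2.88 and *Arnt* between *Egln1* and *Bnip3* at 8.20 ± 0.192. Of neighbours in this order, *Bnip3* and *Vegfa* overlapped between mice and the other members' ranges did not. The order differed in Ahr-/- mice at both ends. There *Egln2*, at 22.9 to 25.0, stood above *Hif1a*, at 21.5 to 22.3, and *Egln3*, at 1.51 to 1.59, stood above *Ankrd37*, at 1.00 to 1.25. The mRNA for the α subunit with the highest level thus exceeded that of *Arnt* in every mouse, as did *Ahr*. These levels carry no test, since exon lengths come from annotation and not from the transcripts these cells used.

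Of the 3 prolyl hydroxylase genes, *Egln3* and *Egln2* were higher and *Egln1* was lower in Ahr-/- B cells. *Egln3* (chromosome 12, 54178981 to 54203860), which encodes PHD3 and is itself a known hypoxia-inducible gene, had 56.3, 44.3 and 61.8 normalized counts in the Ahr+/+ mice and 154, 160 and 162 in the Ahr-/- mice. The lowest Ahr-/- mouse had more than double the highest Ahr+/+ mouse, and the Ahr-/- mice lay close together. The means were 54.1 ± 8.96 and 159 ± 4.02 (SD, n = 3 mice each), a 2.95-fold rise with a log2 fold change of 1.56 (SE 0.15, edgeR adjusted p = 1.1e-05) and a 95% interval of 1.23 to 1.88. It ranked 211 from the highest log2 fold change, above 98.5% of tested genes. The raw counts behind it were 58, 44 and 55 in Ahr+/+ and 90, 225 and 178 in Ahr-/- libraries, the 90 coming from the shallowest library. In all 14 alternative fits it stayed past the threshold, between 1.43 and 1.66.

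*Egln3* and *Hif1a* lie on the same chromosome as *Ahr*, 18.6 and 38.4 Mb from it. Of the 102 tested genes within 20 Mb of *Ahr*, 32 were called (31.4%), 15 higher and 17 lower, against 21.7% at 20 to 40 Mb, 19.8% beyond 40 Mb on the chromosome and 17.8% on other chromosomes. Loss of AhR and flanking DNA that travelled with the targeted allele cannot be told apart for genes in that stretch with these libraries.

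*Egln1* (chromosome 8, 124908587 to 124949324), which encodes PHD2, the main oxygen sensor of the family, had 1660, 1563 and 1612 normalized counts in the Ahr+/+ mice and 1474, 1389 and 1508 in the Ahr-/- mice. Every Ahr-/- mouse lay below every Ahr+/+ mouse, with a gap between the closest mice narrower than the range within either genotype. The means were 1611 ± 48.7 and 1457 ± 61.3 (SD, n = 3 mice each), 9.73% lower in Ahr-/- B cells (log2 fold change -0.15, SE 0.047, edgeR adjusted p = 0.047). *Egln2* (chromosome 7, 27158658 to 27166802), which encodes PHD1, had 2285, 2443 and 2315 against 2470, 2578 and 2688. Its genotypes were also separate, with the highest Ahr+/+ mouse just under the lowest Ahr-/- mouse. The means were 2348 ± 83.8 and 2578 ± 109 (SD, n = 3 mice each), 10.0% higher in Ahr-/- B cells (log2 fold change 0.14, SE 0.044, edgeR adjusted p = 0.047). *Egln2* overlaps *Cyp2t4* on the opposite strand.

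Both of these calls sat at the threshold, and 7 of 14 alternative fits lost each. The *Egln1* call was lost without Ahr+/+ replicate 1 (adjusted p = 0.15), without Ahr+/+ replicate 3 (0.11), without Ahr-/- replicate 1 (0.072) and without Ahr-/- replicate 2 (0.25), all from edgeR. The *Egln2* call was lost without Ahr+/+ replicate 1 (adjusted p = 0.15), Ahr+/+ replicate 3 (0.15), Ahr-/- replicate 2 (0.14) and Ahr-/- replicate 3 (0.14), again from edgeR. With library size alone as the scaling the *Egln1* call was also lost (adjusted p = 0.091 from edgeR), as was the *Egln2* call with DESeq2's size factors (0.056), and DESeq2's Wald test made neither call (adjusted p = 0.075 and 0.076). Both directions held in every one of these fits.

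*Hif1an* (chromosome 19, 44562850 to 44576274), the asparagine hydroxylase gene, had 4920, 4615 and 4818 normalized counts in the Ahr+/+ mice and 4318, 4485 and 4485 in the Ahr-/- mice. The genotypes did not overlap, yet the gene missed the threshold. The means were 4784 ± 155 and 4429 ± 96.3 (SD, n = 3 mice each), with a log2 fold change of -0.11 (SE 0.040, edgeR adjusted p = 0.080). Its unadjusted 95% interval was -0.20 to -0.02. Without Ahr+/+ replicate 2 it passed (adjusted p = 0.043 from edgeR).

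*Vhl* (chromosome 6, 113623959 to 113631633), which encodes the substrate receptor of the ubiquitin ligase that removes hydroxylated HIF α, had 1819, 1617 and 1517 normalized counts in the Ahr+/+ mice and 1406, 1389 and 1421 in the Ahr-/- mice. The Ahr-/- mice were nearly equal and all lay below the Ahr+/+ mice, which were more spread. The means were 1651 ± 154 and 1405 ± 15.8 (SD, n = 3 mice each), 15.0% lower in Ahr-/- B cells (log2 fold change -0.23, SE 0.060, edgeR adjusted p = 0.016). Without the highest Ahr+/+ mouse, replicate 1, the log2 fold change was -0.16 (adjusted p = 0.057 from edgeR), and without Ahr-/- replicate 2 it was -0.22 (adjusted p = 0.066 from edgeR).

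**Figure D3:**
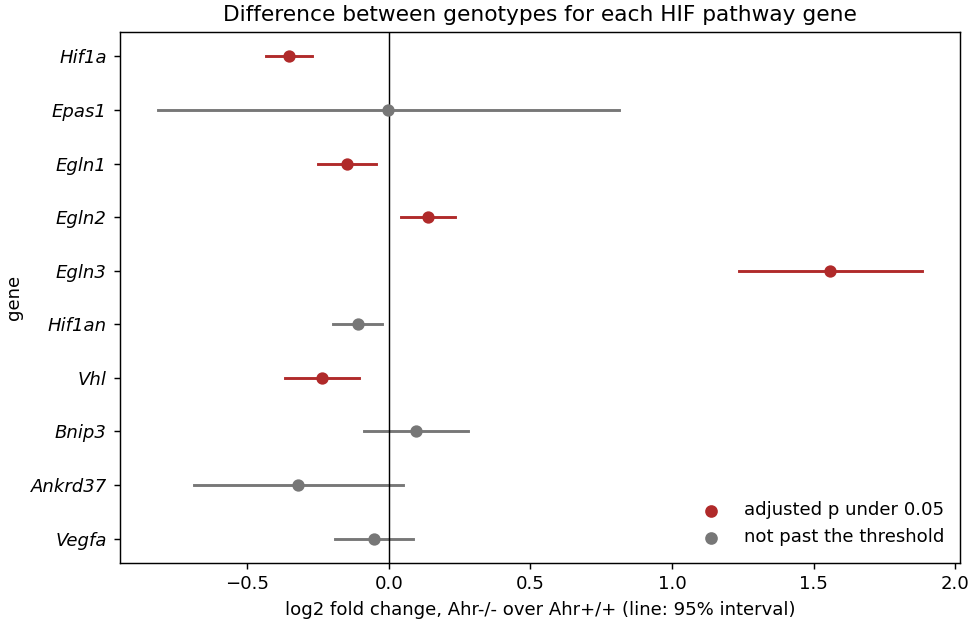
Log2 fold change (Ahr-/- over Ahr+/+, horizontal axis) of each member with its 95% interval, not adjusted for the number of genes. Red marks an adjusted p under 0.05. *Egln3* stands alone at 1.56, *Hif1a* lies at -0.35 with a narrow interval, and *Epas1* has the widest interval.

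None of the 3 members that are HIF targets outside the sensing machinery passed the threshold. *Bnip3* (chromosome 7, 138890836 to 138909519), a mitophagy receptor gene, had 629, 497 and 537 normalized counts in the Ahr+/+ mice and 626, 583 and 578 in the Ahr-/- mice. The Ahr+/+ mice held both the highest and the lowest value. The log2 fold change was 0.10 (SE 0.084, edgeR adjusted p = 0.50), with an unadjusted 95% interval of -0.09 to 0.28. *Vegfa* (chromosome 17, 46016993 to 46032369), the main angiogenic growth factor gene, had 940, 874 and 968 against 812, 919 and 932. These ranges overlapped. The log2 fold change was -0.05 (SE 0.063, edgeR adjusted p = 0.64), with an interval of -0.19 to 0.08.

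*Ankrd37* (chromosome 8, 45996902 to 46005707), an ankyrin repeat gene strongly induced by HIF-1 in other cells, had 88.4, 74.5 and 73.0 normalized counts in the Ahr+/+ mice and 73.8, 59.7 and 59.3 in the Ahr-/- mice. In each genotype 1 mouse stood above the other two, and the highest Ahr-/- mouse lay just above the lowest Ahr+/+ mouse. The log2 fold change was -0.32 (SE 0.17, edgeR adjusted p = 0.24), with an interval of -0.69 to 0.05. *Ankrd37* and *Bnip3* also overlap genes on the opposite strand, *Ufsp2* and *Lrp2bp* for the former and *Gm45507* and *Gm18258* for the latter.

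Of 12 other genes of the HIF machinery, 11 were tested and 3 were called (27.3%, against 17.9% of all tested genes), 1 higher and 2 lower, with a median log2 fold change of -0.08. *Cited2*, which encodes a competitor of HIF for the coactivators CBP and p300, had 995, 1163 and 1053 normalized counts in Ahr+/+ mice and 1473, 1496 and 1539 in Ahr-/- mice. All Ahr-/- mice were higher, a rise of 40.5% (log2 fold change 0.49, SE 0.057, edgeR adjusted p = 5.8e-05). The chaperone genes *Hsp90aa1* and *Hsp90ab1*, whose products bind both AhR and HIF-1α, fell by 0.21 and 0.22 on the log2 scale (adjusted p = 0.0012 and 5.0e-04 from edgeR). Both have many processed pseudogenes, with which reads may be shared. The ligase components *Cul2*, *Rbx1*, *Tceb1* and *Tceb2* had log2 fold changes of 0.03, 0.07, 0.08 and 0.01, and the coactivator genes *Ep300* and *Crebbp* -0.09 and -0.13, all without passing the threshold. Without Ahr-/- replicate 3 the count of 3 rose to 6, with *Arnt*, *Ep300* and *Crebbp* added. With the replicate block it was 4, with *Crebbp* added.

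A list of 46 further HIF target genes held 39 that were tested, of which 11 were called (28.2%, against 17.9% of all tested genes), 4 higher and 7 lower, with a median log2 fold change of 0.03. *Cited2* is in this list and in that of the machinery, and *Flt1* in this list and in that of the VEGF family. Among 19 tested genes of glucose uptake and glycolysis, 5 were called (26.3%), 1 higher and 4 lower, where 9.79% and 8.13% of all tested genes were called in these directions. The glucose transporter genes went apart, with *Slc2a3* higher (log2 fold change 0.30, adjusted p = 0.0036 from edgeR) and *Slc2a1* lower (-0.23, adjusted p = 0.0017 from edgeR). *Pfkp*, a phosphofructokinase gene, fell by 0.27, *Gapdh* by 0.17 and *Gpi1* by 0.12 on the log2 scale (adjusted p = 0.0063, 0.020 and 0.041 from edgeR). The *Gapdh* call was lost without Ahr+/+ replicate 2 (adjusted p = 0.056 from edgeR) and without Ahr-/- replicate 1 (0.067), and *Gapdh* too has many processed pseudogenes. The *Gpi1* call was lost in 6 of the 14 alternative fits, among them every one that left out a library other than Ahr+/+ replicate 1 (adjusted p = 0.076 to 0.12 from edgeR). The abundant glycolytic genes *Pgk1*, *Ldha* and *Aldoa* had log2 fold changes of 0.07, 0.03 and -0.03 and did not pass. *Eno1* was listed at 0 in every library, and the counts cannot tell absence from reads that were not assigned to it.

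Of the other 20 tested targets, 6 were called (30.0%, against 17.9% of all tested genes), 3 in each direction, and the largest change among all called pathway genes was found here. *Ddit4*, which encodes the mTORC1 inhibitor REDD1, had 2558, 2420 and 2285 normalized counts in Ahr+/+ mice and 661, 658 and 757 in Ahr-/- mice. The Ahr-/- mice lay far below all Ahr+/+ mice, and the mean was 3.49-fold lower (log2 fold change -1.80, SE 0.062, edgeR adjusted p = 1.1e-09). *Ak4*, a mitochondrial adenylate kinase gene, had 118, 123 and 115 against 65.2, 49.1 and 28.3. The Ahr-/- mice were all lower but varied among themselves (log2 fold change -1.38, SE 0.22, edgeR adjusted p = 8.8e-04). *Ndrg1*, a stress-responsive gene, fell by 0.65 on the log2 scale (adjusted p = 4.5e-04 from edgeR).

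The called targets of this second list that rose were *Cited2*, *Edn1* and *Angptl4*. *Edn1*, the endothelin-1 gene, had 21.4, 16.1 and 15.7 normalized counts in Ahr+/+ mice and 49.8, 49.8 and 29.2 in Ahr-/- mice. All Ahr-/- mice were higher on low counts (log2 fold change 1.25, SE 0.28, edgeR adjusted p = 0.0084), and without Ahr-/- replicate 2 the call was lost (1.08, adjusted p = 0.056 from edgeR). *Angptl4*, which encodes a regulator of lipid metabolism, had a log2 fold change of 0.59 (adjusted p = 0.029 from edgeR), lost in 6 of the 14 alternative fits, among them those without Ahr+/+ replicate 1, 2 or 3 and without Ahr-/- replicate 1 or 3 (adjusted p = 0.051 to 0.11 from edgeR).

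*Vegfa*'s relatives and receptors were compared in the same fit. Of 9 genes, 7 were tested and 1 was called (14.3%, against 17.9% of all tested genes), with a median log2 fold change of 0.07. *Nrp2*, a VEGF co-receptor gene, had 1143, 1395 and 1322 normalized counts in Ahr+/+ mice and 1811, 1804 and 1775 in Ahr-/- mice. All Ahr-/- mice were higher and close together (log2 fold change 0.48, SE 0.062, edgeR adjusted p = 1.4e-04). The receptor genes *Flt1* and *Kdr* had log2 fold changes of 0.46 and 0.52 without passing (adjusted p = 0.22 and 0.43 from edgeR), and *Flt1* passed without Ahr-/- replicate 3. The lowest point in the plot of the other lists is *Pgf*, with at most 9 counts in any library.

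**Figure D4:**
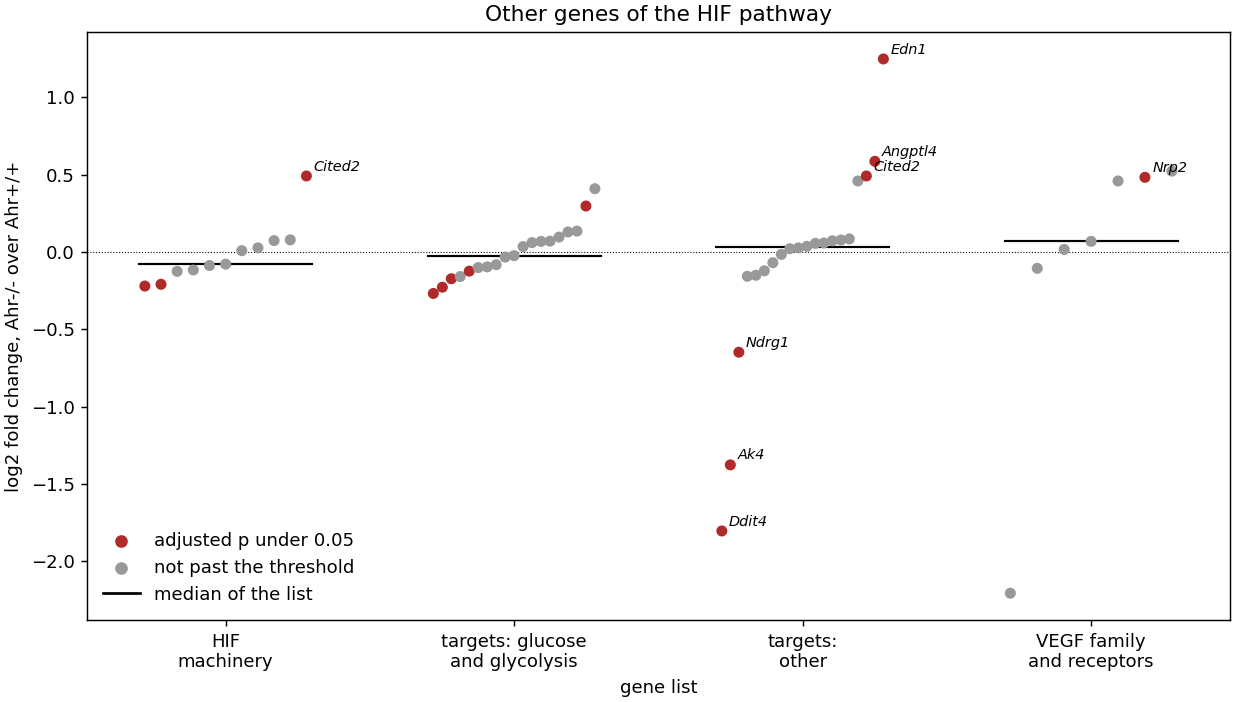
Log2 fold change (vertical axis, Ahr-/- over Ahr+/+) of every tested gene in 4 lists of HIF pathway genes, with the median of each list as a line. Red marks an adjusted p under 0.05, and named genes over 0.4 in size are labelled. The medians lie between -0.08 and 0.07, and *Ddit4* at -1.80 is the lowest called gene.

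Cell type markers moved with genotype beside these results. Over the same comparison in which *Egln3* and *Nrp2* were higher, the plasmacytoid dendritic cell marker *Siglech* went from 56.8 ± 4.19 to 270 ± 32.3 and the dendritic cell marker *Itgax* from 148 ± 38.7 to 302 ± 53.9 normalized counts (SD, n = 3 mice each). Of the 10 dendritic cell markers 6 were called higher and 1 lower, *Zbtb46*, which had a log2 fold change of -0.40, against 9.79% and 8.13% of all tested genes. The macrophage marker *Emr1* went down, from 650 ± 14.7 to 54.1 ± 16.1, while 6 of the 10 macrophage and monocyte markers had a positive log2 fold change. The part of these cells in the levels of the members was not tested.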

How the data were processed

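Stranded mRNA libraries (TruSeq) of 6 mice were sequenced on an Illumina HiSeq. The deposited table used here holds the authors' raw read counts per gene. The submitters' processing notes name TopHat2, HTSeq, DESeq and mm10. The annotation and the strand setting of the counting are not given in the sources used here. Also deposited, and not used, were the authors' normalized counts and their comparison of the genotypes (mean values, fold changes and p-values).

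Groups came from the genotype in the labels. Counts were compared with edgeR 4.0.16 (glmQLFit and glmQLFTest, TMM) in R 4.3.3 on the 13682 genes whose counts summed to 10 or more in the 6 libraries, with p-values adjusted by Benjamini-Hochberg over all of them and a threshold of 0.05. The common biological coefficient of variation was 0.048. Normalized counts are counts divided by the TMM library size relative to the mean. Intervals are 95% intervals from the fit. Single values were compared with a two-sided exact permutation test. Promoter windows came from RefSeq GRCm38.p6 and positions and exon lengths from GENCODE M21, which placed 13609 of the tested genes. The fit was tested on simulated counts with known changes. No pair of replicates agreed within sampling noise, and the first principal component (76.3% of the variance) separated the genotypes.

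All 10 members were named, and in the other lists up to 4 called, non-overlapping genes per direction whose higher genotype averaged 10 normalized counts or more, plus *Arnt*, *Arnt2*, *Hif3a*, *Ahr* and *Cyp1a1*. Genes named outside this rule (*Pgf*, *Flt1*, *Kdr*, *Eno1*, *Pgk1*, *Ldha*, *Aldoa*, ligase and coactivator genes, *Siglech*, *Itgax*, *Zbtb46*, *Emr1*, *Cd14* and *Pecam1*) were chosen after their values were seen. The members and lists were chosen with earlier results of these data known. Alternatives were DESeq2 1.42.0 (size factors and Wald test), library size alone, other filters, a robust fit, a replicate block, another prior count, a threshold of 0.01 and leaving out each library.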

Additional observations from a re-analysis of the deposited data

How the results depend on the processing

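Of 140 alternative fits of single members, 116 kept direction and side of the threshold, 16 lost a call, 1 gained one and 7 reversed. The 7 were all of *Epas1*, whose log2 fold change was -0.00 and became 0.022 with library size alone, 0.0041 with at least 10 counts in 3 libraries, 0.034 with the replicate block, and between -0.24 and 0.26 with each library left out. *Hif3a* reversed to 0.0073 without Ahr-/- replicate 2, in a range of -0.21 to 0.0073 with each library left out. The causes were not tested. In the fit with another prior count the adjusted p-values equalled those of the main fit, so that fit could not change a call. The number of members called, 5, became 3 with DESeq2's Wald test, 2 at an adjusted p under 0.01, and between 2 and 6 with each library left out. *Hif1a* and *Egln3* were called in all of these. The count of 3 machinery genes ran from 3 to 6 and that of 1 VEGF family gene from 1 to 2 with each library left out, the higher values both without Ahr-/- replicate 3. The labels do not say that equal replicate numbers pair the mice, and deviations of same-numbered mice correlated at -0.14, 0.26 and -0.16. With the replicate block, 3 members were called in place of 5, *Egln1* and *Egln2* being lost (adjusted p = 0.053 and 0.058 from edgeR), and 2303 genes in place of 2453. Over all genes, 1473 were called at 0.01 and 1664 to 2601 with each library left out. Scalings moved the median log2 fold change of all genes by less than 0.03. Low counts leave more counting error in *Epas1*, *Hif3a*, *Ankrd37* and *Edn1*. The same holds for *Ak4* in Ahr-/- libraries and *Egln3* in Ahr+/+ libraries. In Ahr+/+ libraries *Egln3* had 58, 44 and 55 counts, against 91, 74 and 65 for *Ankrd37*.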
